A study of Rattus norvegicus with 24 samples.

Results

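The interaction of reciprocal cross and early injection was examined in the nucleus accumbens (NAc) shell, using its 8 RNA-seq libraries of the 24 in the series. Each of 8 male F1 rats, bred from the inbred Fischer-344 (F344) and Brown Norway (BN) strains, gave 1 library per region. Subgroup A (initial cross, F344 father and BN mother) held rats 1, 2, 11 and 15, and subgroup B (reciprocal cross, BN father and F344 mother) held rats 3, 4, 13 and 16. By the labels, rats 1, 2, 3 and 4 were injected with nicotine (NIC, 0.4 mg/kg, intraperitoneal) and rats 11, 13, 15 and 16 with saline (SAL, 1.0 ml/kg) on each of the first 4 days. From day 7 all 8 rats received intravenous NIC at 30 µg/kg per infusion, 10 infusions a day for 6 days, self-administered or given passively, so the saline groups were not free of nicotine. Hand-dissected tissue of about 20 mg was taken on day 15. Each of the 4 cells of the design (A-NIC, B-NIC, A-SAL and B-SAL) held 2 rats. The interaction is the A minus B difference under NIC minus the A minus B difference under SAL, on the log2 scale, so a positive value means that A exceeded B by more after NIC than after SAL. The NAc core libraries of the same 8 rats, from the same preparation batches, served as the comparison.

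The batches limit what this contrast can separate. Both A-NIC libraries belonged to preparation batch E, both B-NIC libraries to batch F and all 4 SAL libraries to batch G, in shell and in core. The A minus B difference under NIC therefore cannot be told apart from a difference between batches E and F, and both NIC against SAL differences also cross batches. The A minus B difference under SAL lies within batch G.

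The NAc is the ventral part of the striatum. Its shell and core are built mainly of GABAergic medium spiny neurons, with sparse cholinergic and GABAergic interneurons, and receive glutamatergic input from cortex, hippocampus and amygdala and dopaminergic input from the ventral tegmental area (VTA), where nicotine acts on nicotinic acetylcholine receptors. Reciprocal F1 males of 2 inbred strains carry the same autosomes, inherited from opposite parents, and differ in their X chromosome, Y chromosome and mitochondrial DNA. Imprinted genes, which are read from the copy of 1 parent, are therefore a group that a reciprocal cross can probe.

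Library totals ranged from 19146904 to 21680765 counts in shell and from 17563458 to 20480697 in core. Of the 17323 genes in the table, 16289 were tested, and 7458 of these (45.8%) could be named. Markers of striatal projection neurons, 12 of which were tested, were detected in every library, with a summed level of 2616 to 4314 CPM (counts scaled to library size) in shell and 3253 to 5557 in core. In bulk tissue, fewer cells of a type and less RNA per cell cannot be told apart.

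In the shell, 57 genes passed the threshold for the interaction (edgeR quasi-likelihood test, adjusted p under 0.05), which is 0.35% of the genes tested. A positive interaction was found for 55 of them (0.338%) and a negative one for 2 (0.0123%). The positive genes with a known name included the neuropeptides Cck and Adcyap1, the synaptic proteins Nrgn and Nptx1, the vesicular zinc transporter Slc30a3 and the transcription factor Lhx2. The negative ones were Arhgap36 and LOC100910143. Of the 57, 18 had a name and 39 did not, and all 39 without a name were positive. Adjusted p ranged from 0.00801 to 0.0486 within the 57, and the next gene outside stood at 0.0519. At an unadjusted p under 0.05, 1208 genes passed (7.42%), 725 of them positive (4.45%) and 483 negative (2.97%).

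Most of the positive genes followed 1 pattern over the 8 rats. Setting aside ENSRNOG00000043107 and Cfb, which had 0 counts in some libraries, 53 positive genes remained. All 4 A-NIC and B-SAL libraries lay above all 4 A-SAL and B-NIC libraries in 50 of the 53. Over all tested genes that order was found in 2.62%. Because the 53 were called on this same contrast, their order describes the call and is no separate evidence for it. The median of the 53 interactions was 1.54, with a range from 0.66 to 3.36, against -0.01 over all tested genes. Their median A minus B difference was 0.96 under NIC and -0.55 under SAL, against -0.002 and -0.003 over all genes.

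The single libraries did not split evenly. Relative to each gene's mean over the 8 shell libraries, the median log2 level of the 53 genes was 0.48 in rat 1 and 0.41 in rat 2 (A-NIC). It was 0.32 in rat 13 and 0.33 in rat 16 (B-SAL). It was -0.51 in rat 3 and -0.54 in rat 4 (B-NIC). The A-SAL rats differed from each other, with 0.01 in rat 11 and -0.42 in rat 15. Rat 11 stood above rat 15 in 51 of the 53 genes and above both B-NIC rats in 51, so that it lay between the high and the low libraries.

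**Figure D1:**
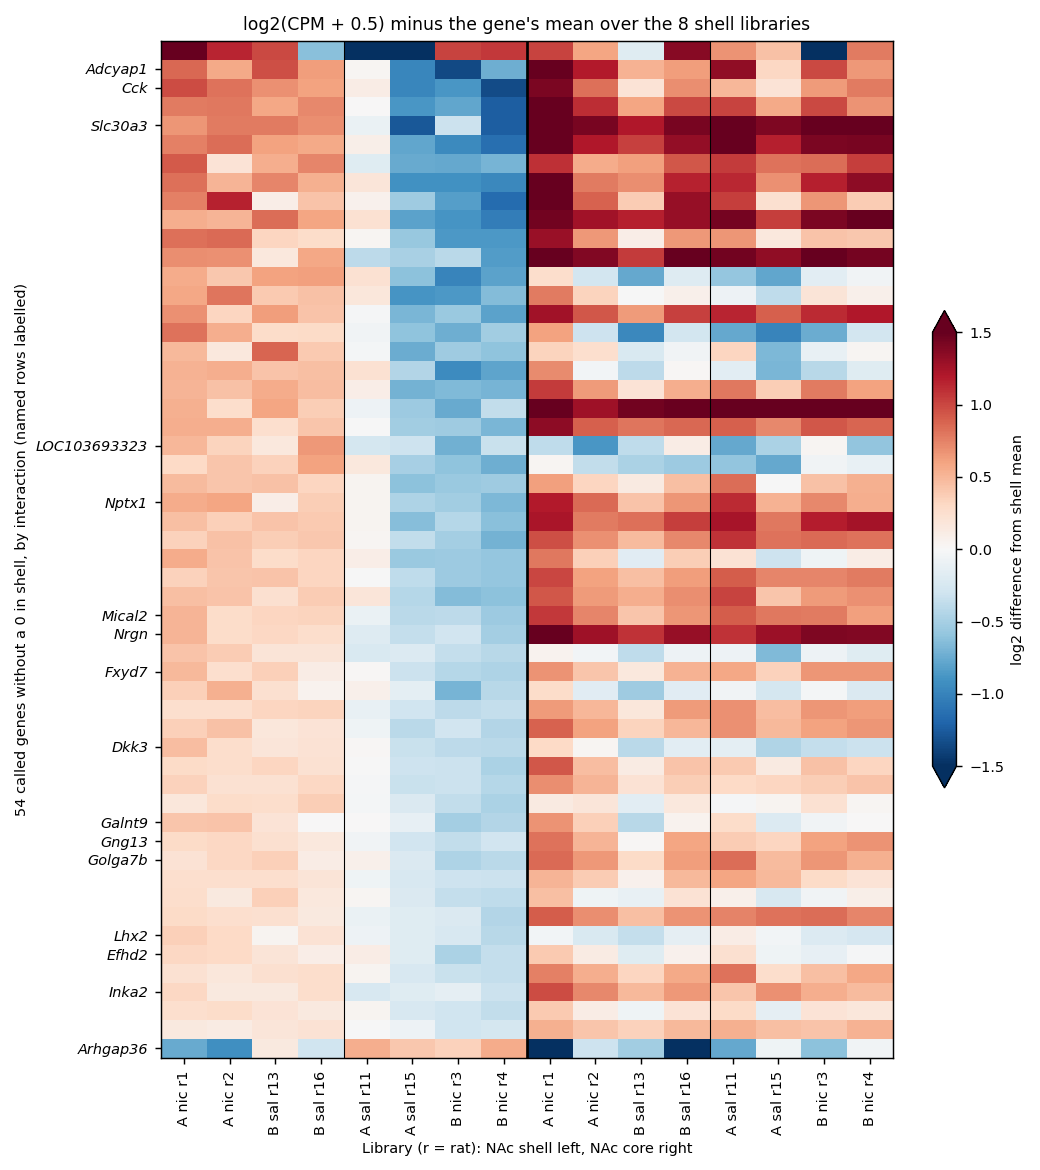
Heat map of the 54 called genes without a 0 in shell (53 positive and Arhgap36), in rows ordered by their interaction, against the 16 NAc libraries in columns (8 shell on the left, 8 core on the right; r is the rat number). Colour is log2(CPM + 0.5) minus the gene's mean over the 8 shell libraries, clipped at 1.5 either way. In shell the first 4 columns are red and the next 4 pale or blue in nearly all rows, with rat 11 in between, and in core the same order of columns shows no such step.

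Promoter sequences are shown for 3 positive genes of different function and for Arhgap36, which moved the other way, because genes that move together are often compared at their promoters. RefSeq promoters (build GRCr8) were found by symbol for 10 of the 18 named genes. Each sequence below is the 250 bases before the annotated start, first start listed where there are several, written 5′ to 3′ on the gene's strand. Capitals mark the GC box GGGCGG or the E-box CACGTG on either strand. Nrgn lies on the minus strand at chr8:45452418-45452667, Mical2 on the plus strand at chr1:175780196-175780445, Slc30a3 on the plus strand at chr6:30997164-30997413 and Arhgap36 on the plus strand at chrX:133635746-133635995.
Nrgn: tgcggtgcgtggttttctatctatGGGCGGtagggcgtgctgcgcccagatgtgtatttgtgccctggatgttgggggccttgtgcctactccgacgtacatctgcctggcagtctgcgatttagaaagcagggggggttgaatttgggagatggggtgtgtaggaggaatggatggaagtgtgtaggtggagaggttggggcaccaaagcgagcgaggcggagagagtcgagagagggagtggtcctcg
Mical2: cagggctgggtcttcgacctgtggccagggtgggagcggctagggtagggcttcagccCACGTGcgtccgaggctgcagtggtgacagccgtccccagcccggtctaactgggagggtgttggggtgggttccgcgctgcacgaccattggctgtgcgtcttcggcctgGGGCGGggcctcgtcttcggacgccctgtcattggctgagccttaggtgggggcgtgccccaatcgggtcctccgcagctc
Slc30a3: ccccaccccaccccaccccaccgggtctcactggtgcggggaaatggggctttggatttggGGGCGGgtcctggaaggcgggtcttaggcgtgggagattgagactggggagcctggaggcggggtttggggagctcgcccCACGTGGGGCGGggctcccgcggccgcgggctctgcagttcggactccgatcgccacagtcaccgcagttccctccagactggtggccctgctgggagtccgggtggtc
Arhgap36: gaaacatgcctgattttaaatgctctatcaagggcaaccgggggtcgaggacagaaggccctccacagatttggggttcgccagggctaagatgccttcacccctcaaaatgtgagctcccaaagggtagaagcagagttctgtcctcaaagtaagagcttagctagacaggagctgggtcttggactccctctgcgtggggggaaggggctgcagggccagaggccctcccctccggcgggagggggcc
In these windows the GC box was found 1 time in Nrgn, 1 time in Mical2, 2 times in Slc30a3 and 0 times in Arhgap36. It was found in 6 of the 10 matched genes (60%), against 32.4% of 27457 promoters of that length. The E-box was found in 2 of the 10 (20%), namely Mical2 and Slc30a3, against 5.79%. In Slc30a3 the E-box and 1 GC box adjoin without overlap, and their capitals form 1 run. The core of the cyclic AMP response element, TGACG, was found in 2 of the 10 (20%), against 19%. With 10 genes these shares are descriptions, and no binding was measured.

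The named genes are described by the known role of their products, an order set after the calls were known and not tested as groups. Cck, the precursor of cholecystokinin, a peptide co-released by cortical and limbic neurons, stood at 267 and 239.9 CPM in the A-NIC rats and at 73.6 and 53.3 in the B-NIC rats. Under SAL it stood at 146 and 68.7 in A and at 219.6 and 207 in B. Each A-NIC and B-SAL value exceeded each of the other 4. Cck was 3.97-fold higher in A than in B under NIC and 1.99-fold lower under SAL, with an interaction of 2.98 ± 0.39 (SE, adjusted p = 0.0186).

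Adcyap1 encodes the neuropeptide PACAP. Its levels were low, at 9.37 and 7.53 CPM in A-NIC, 1.62 and 2.77 in B-NIC, 5.04 and 2.26 in A-SAL and 10.1 and 7.84 in B-SAL. As for Cck, each A-NIC and B-SAL value exceeded each of the other 4. The interaction was 3.23 ± 0.54 (adjusted p = 0.0384), the highest of the named genes without a 0.

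Nptx1, neuronal pentraxin 1, is a secreted protein that clusters AMPA receptors at excitatory synapses. It stood at 169 and 174 CPM in A-NIC, 79.6 and 72.2 in B-NIC, 118 and 83.4 in A-SAL and 123 and 148 in B-SAL. The A-NIC rats were highest, and the SAL subgroups nearly met, with rat 11 just under rat 13. The interaction was 1.60 ± 0.21 (adjusted p = 0.0186), with a 2.25-fold excess of A under NIC. Dkk3, a secreted glycoprotein of the Dickkopf family, had 250.2 and 218 CPM in A-NIC, 138 and 137 in B-NIC, 184 and 144 in A-SAL and 207 and 212 in B-SAL. The B-NIC rats were nearly equal and rat 11 was again nearer to the high libraries than rat 15. Its interaction was 1.12 ± 0.16 (adjusted p = 0.0219).

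Other products act in the dendrite, at the synapse or at the neuronal membrane. Nrgn, neurogranin, binds calmodulin in dendritic spines. It was abundant, with 1054 and 898 CPM in A-NIC, 606 and 518 in B-NIC, 646 and 579.7 in A-SAL and 916 and 887 in B-SAL. The 4 high and the 4 low libraries were separated by a gap, and rat 2 and both B-SAL rats were nearly equal. The interaction was 1.35 ± 0.16 (adjusted p = 0.0103), made of a 1.73-fold excess of A under NIC and a 1.48-fold deficit under SAL.

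Slc30a3 encodes ZnT3, which loads zinc into vesicles of glutamatergic terminals. It stood at 59.0 and 63.9 CPM in A-NIC and 64.1 and 60.7 in B-SAL. In the low cells it stood at 34.7 and 15.1 in A-SAL and at 29.5 and 15.5 in B-NIC. The high cells were tight, while the 2 rats of each low cell were far apart and the 2 low cells overlapped. The interaction was 2.77 ± 0.48 (adjusted p = 0.0449).

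Efhd2, a calcium-binding actin regulator, had an interaction of 0.90 ± 0.14 (adjusted p = 0.0357) and was 1 of the 3 genes in which the cells overlapped, since rat 11 (166 CPM) exceeded rat 16 (165 CPM). Fxyd7, a regulatory subunit of the sodium pump, had an interaction of 1.21 ± 0.20 (adjusted p = 0.0366). Its means were 69.3 ± 8.27 CPM (SD, n = 2) in A-NIC, 39.1 ± 0.800 in B-NIC, 48.2 ± 8.15 in A-SAL and 63.1 ± 7.89 in B-SAL. Gng13, a G protein gamma subunit, ranged from 21.8 to 35.2 CPM over the 8 rats, with an interaction of 1.01 ± 0.17 (adjusted p = 0.0407).

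**Figure D2:**
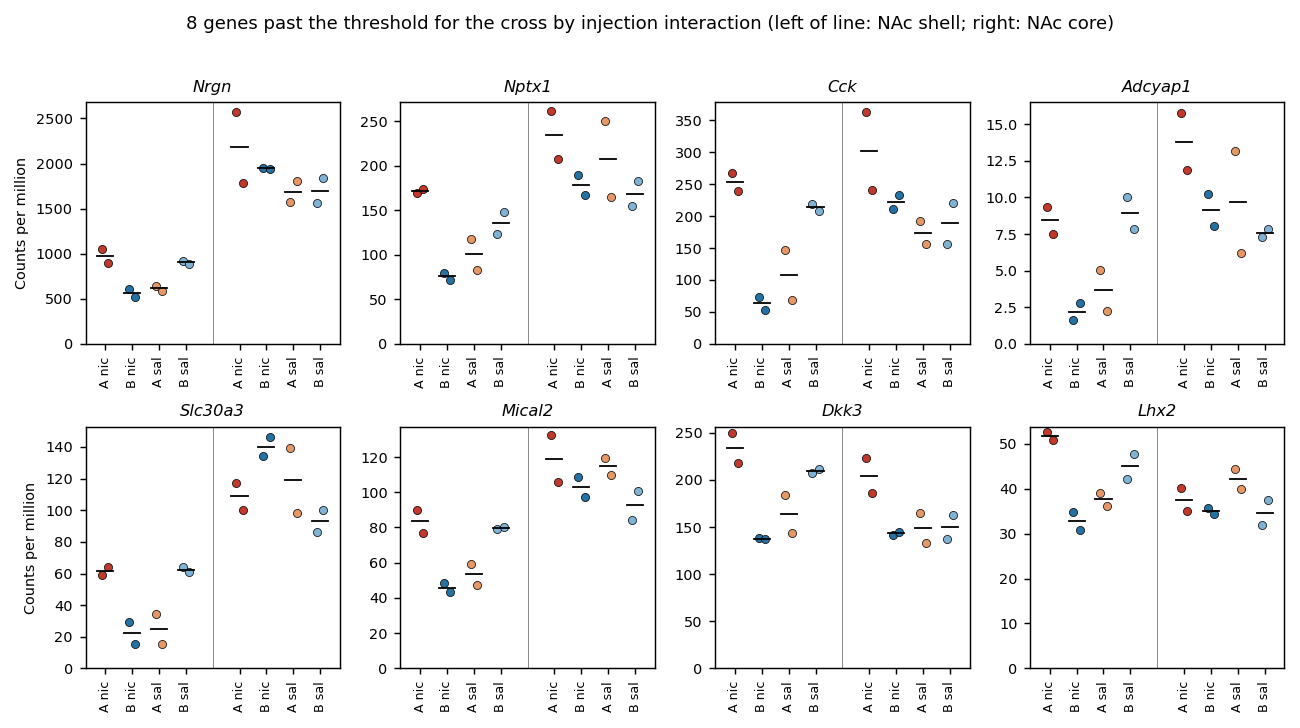
CPM (vertical axis, linear from 0) of 8 genes past the interaction threshold, with 1 point per library, for the 4 cells in NAc shell (left of the grey line) and in NAc core (right); bars are means of 2 rats. In shell the A-NIC and B-SAL points lie above the B-NIC and A-SAL points in all 8 panels, and in core the same rats overlap.

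Others act on the cytoskeleton or on membrane proteins. Mical2, a monooxygenase that oxidises actin, stood at 90.1 and 76.8 CPM in A-NIC, 48.3 and 43.4 in B-NIC, 59.3 and 47.6 in A-SAL and 79.2 and 80.2 in B-SAL. A-NIC and B-SAL were at one level and the other cells at a lower one. The interaction was 1.44 ± 0.17 (adjusted p = 0.0131). Inka2, an inhibitor of the kinase PAK4, had the smallest interaction of the named genes, 0.88 ± 0.14 (adjusted p = 0.0331), with 117 ± 9.49 CPM (SD, n = 2) in A-NIC, 84.6 ± 7.94 in B-NIC, 85.9 ± 2.25 in A-SAL and 115 ± 6.63 in B-SAL. Its opposite differences under NIC and SAL were of like size, 0.46 ± 0.10 and -0.42 ± 0.10.

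Galnt9, which starts O-linked glycosylation in brain, had an interaction of 1.08 ± 0.16 (adjusted p = 0.0219). Most of it lay under NIC, where A was 1.87-fold above B, since the SAL difference was -0.18 ± 0.11 (unadjusted p = 0.140). Golga7b, a partner of palmitoyltransferases, ranged from 58.4 CPM in rat 3 to 103 in rat 13, with an interaction of 0.99 ± 0.17 (adjusted p = 0.0384). Lhx2, a LIM-homeobox transcription factor of the developing forebrain, stood at 52.6 and 50.8 CPM in A-NIC, 34.8 and 30.8 in B-NIC, 39.1 and 36.2 in A-SAL and 42.2 and 47.7 in B-SAL. Its 4 cells did not overlap with each other. Its interaction was 0.91 ± 0.16 (adjusted p = 0.0466).

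LOC103693323, an uncharacterised locus, had 20.9 ± 1.63 CPM (SD, n = 2) in A-NIC and 21.1 ± 5.06 in B-SAL, against 10.7 ± 2.14 in B-NIC and 12.6 ± 0.292 in A-SAL. Its interaction was 1.70 ± 0.28 (adjusted p = 0.0366). Of the genes without a name, ENSRNOG00000005185 had 70.5 and 71.7 CPM in A-NIC, 21.4 and 21.5 in B-NIC, 40.4 and 26.4 in A-SAL and 49.4 and 47.8 in B-SAL. A-NIC stood above B-SAL and B-SAL above the rest, and the interaction was 2.26 ± 0.23 (adjusted p = 0.00801).

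In 3 called genes whole cells had 0 counts, and for these the fitted fold change is not a usable size. ENSRNOG00000043107 had 0 counts in all 4 A-SAL and B-NIC libraries and 2.42, 4.58, 3.56 and 2.60 CPM in rats 1, 2, 13 and 16. Against a floor of 3 counts per library, the cells with counts were at least 21.1-fold higher. Cfb, complement factor B of the alternative pathway, had 0 counts in both B-NIC rats, 9.24 and 14.04 CPM in A-NIC, 1.32 and 4.17 in A-SAL and 2.36 and 15.0 in B-SAL. A-NIC was at least 81.3-fold above B-NIC, but the 2 B-SAL rats were far apart, 1 near the A-SAL and 1 near the A-NIC level. In core Cfb had 0 counts in rats 1 and 13 and 8.96 CPM at most, so its zeros did not follow the same cells there. The floors cover counting error only.

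LOC100910143 is 1 of the 2 genes with a negative interaction (adjusted p = 0.00801). It had 0 counts in both B-SAL rats and 22.9 to 45.1 CPM in the other 6 rats of the shell. A-SAL was at least 209.6-fold above B-SAL, which made it the only gene called for A against B under SAL (adjusted p = 0.00230, 0.00614% of genes tested), the comparison within batch G. In core the gene had 0 counts in rats 2, 11 and 4 and 19.2 to 34.7 CPM in the other 5, so its zeros there fell in other cells.

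Arhgap36, an inhibitor of protein kinase A, was the mirror image of the main group. It stood at 6.17 and 5.45 CPM in A-NIC, 13.9 and 16.1 in B-NIC, 15.9 and 14.5 in A-SAL and 11.99 and 8.65 in B-SAL. All 4 A-NIC and B-SAL libraries lay below the other 4, an order found in 1.63% of all tested genes. Its interaction was -1.92 ± 0.28 (adjusted p = 0.0219). In core it varied more within cells and the estimate was -1.30 ± 0.80 (unadjusted p = 0.137).

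The interaction was then taken apart into its 2 cross differences and its 2 injection differences in the shell. Under NIC, 39 genes were called for A against B (0.239%), 34 higher in A (0.209%) and 5 lower (0.0307%), and 31 of the 39 were among the 57. Of the 53 positive genes, all 53 were higher in A, and 28 were called. Without rat 1, 2 or 4 this comparison gave 0 calls (875 to 1106 genes at an unadjusted p under 0.05), and without rat 3 it gave 5, of which 0 were among the 57. The fit over all 24 libraries also gave 0 (818 at an unadjusted p under 0.05), and DESeq2 gave 210. This comparison sets batch E against batch F. Under SAL, within batch G, all 53 were lower in A, and 49 of them had an unadjusted p under 0.05 in that direction, against 2.04% of all genes, but 0 of the 53 were called there by edgeR with all 8 libraries. Without rat 11, 31 genes were called under SAL (0.19%), 29 of them lower in A, and 17 of the 31 were among the 57. DESeq2 called 18 genes in that SAL comparison (0.111%), and 9 of them were among the 57. The SAL libraries had entered the call of the 53, so the direction under SAL is part of what chose them.

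**Figure D3:**
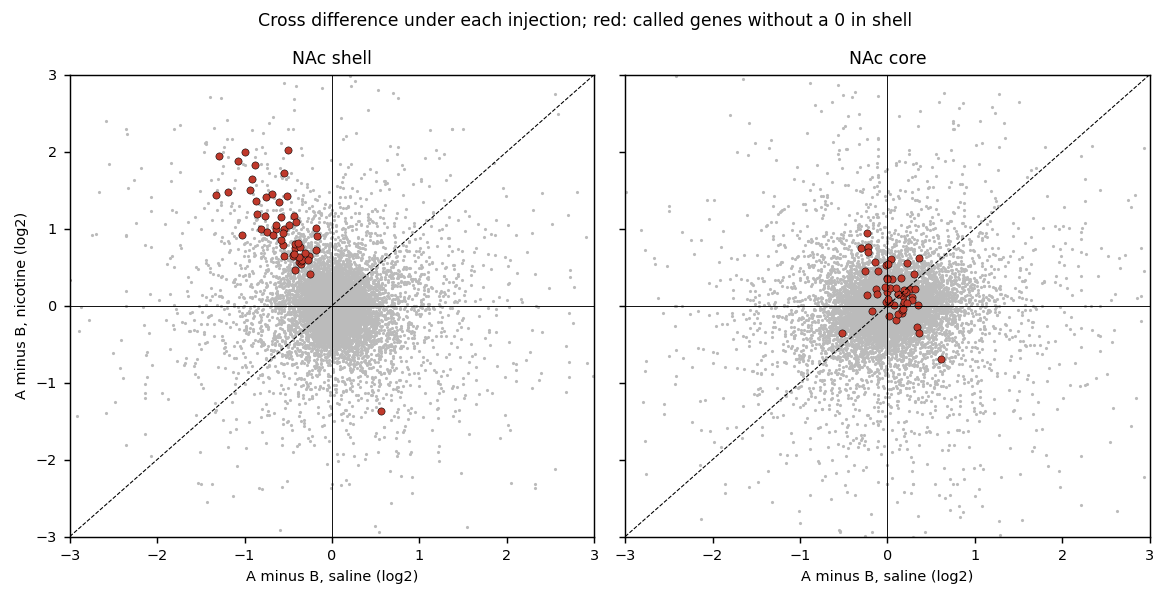
A minus B difference in log2 under SAL (horizontal) against that under NIC (vertical), in NAc shell (left) and NAc core (right). Of the 16289 tested genes, the 54 called genes without a 0 in shell are red and the others grey. The dashed line marks equal differences. Both axes are limited to 3 in either direction, and genes beyond that are left out. Among the called genes in shell this leaves out ENSRNOG00000046177, at -3.03 under SAL. It also leaves out LOC100910143, ENSRNOG00000043107 and Cfb, which had 0 counts in whole cells. In shell the positive genes lie in the upper left corner and Arhgap36 in the lower right, and in core the same genes lie around the origin.

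By injection, 53 of the 53 positive genes were higher after NIC than SAL in A and 52 were lower after NIC in B. By edgeR with all 8 libraries, 1 of the 53 was called in A and 3 in B, against 0.00614% and 0.0368% of all genes called there in either direction and 0.0246% called lower after NIC in B. These counts depended on the tool and on the A-SAL rats. DESeq2 called 43 genes in A (0.328%), 22 of them among the 57, and 118 in B (0.786%), 51 of them among the 57. Without rat 11, edgeR called 51 genes in A (0.313%), 26 of them among the 57, and 57 in B (0.35%), 41 of them among the 57. Without rat 15 it called 0 in A (636 at an unadjusted p under 0.05) and 58 in B (0.356%), 41 of them among the 57. The 1 gene called in A was ENSRNOG00000046177, picked out here after its values were seen. It had 11.55 and 9.80 CPM in A-SAL and 197 and 146 in A-NIC, while B ranged from 42.2 to 137 over both injections. It did not share the pattern of the other genes, since B-NIC was high and its A-SAL rats alone were low.

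Lists of genes for cell types and processes were read for the same contrast, each beside the 4.45% of all genes that were positive and the 2.97% that were negative at an unadjusted p under 0.05. Only members with a name could be counted, and names came from the study's tables. Those tables include lists of differentially expressed genes, also for A against B in these rats. The named genes may therefore be preselected for change, and the shares over all genes are no matched background. Of 21 lists with a tested member, 2 held a called gene, Lhx2 in the list of septal, preoptic and hypothalamic neurons and Cfb in the list of acute phase genes, in each case 1 gene.

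In the list of cholinergic and GABAergic interneurons, all 6 tested genes had negative estimates, with a median of -0.80. The 3 at an unadjusted p under 0.05 are the cholinergic ones. Chat, which makes acetylcholine, stood at 9.37 and 5.64 CPM in A-NIC, 13.99 and 19.4 in B-NIC, 16.7 and 16.8 in A-SAL and 12.3 and 8.499 in B-SAL. The A-NIC and B-SAL rats were all below the other 4. The interaction of Chat was -1.84 ± 0.38 (unadjusted p = 0.000590, adjusted p = 0.0942). Slc5a7, the choline transporter, had -1.51 ± 0.35 (unadjusted p = 0.00144, adjusted p = 0.146), and Slc18a3, the vesicular acetylcholine transporter, had -1.66 ± 0.49 (unadjusted p = 0.00670, adjusted p = 0.325). Slc18a3 stood at 31.1 CPM in rat 13 and 12.1 in rat 16, so the 2 B-SAL rats did not share a level, and over 14 alternatives its estimate ranged from -2.51 to -1.13 and was called in 1, without rat 13. None of the 3 passed the adjusted threshold by edgeR with all 8 libraries, whereas DESeq2, which called 1.59% of all genes for this contrast, called Chat and Slc5a7, the 1 of 14 alternatives that did so for each. In core the 3 estimates were -0.44 ± 0.36, 0.15 ± 0.33 and -0.24 ± 0.33.

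Of 22 tested imprinted genes, 6 were negative at an unadjusted p under 0.05 and 0 were called by edgeR, with 19 negative estimates and a median of -0.19. Usp29, a paternally expressed gene beside Peg3, stood at 87.5 and 88.0 CPM in A-NIC, 102 and 117 in B-NIC, 112 and 115 in A-SAL and 91.8 and 83.6 in B-SAL. The A-NIC and B-SAL rats were all below the other 4, and its interaction was -0.70 ± 0.13 (adjusted p = 0.0640). Grb10, a growth factor receptor adaptor, had -0.50 ± 0.13 (adjusted p = 0.197). Magel2, of the Prader-Willi region, had -0.83 ± 0.23 (adjusted p = 0.256), and Dlk1, a Notch-family ligand, had -1.29 ± 0.40 (adjusted p = 0.355). DESeq2 called 3 of the 22, against 1.59% of all genes, namely Usp29, Grb10 and Magel2, each in that 1 of 14 alternatives. In core 1 of the 22 had an unadjusted p under 0.05, and the median was -0.07.

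**Figure D4:**
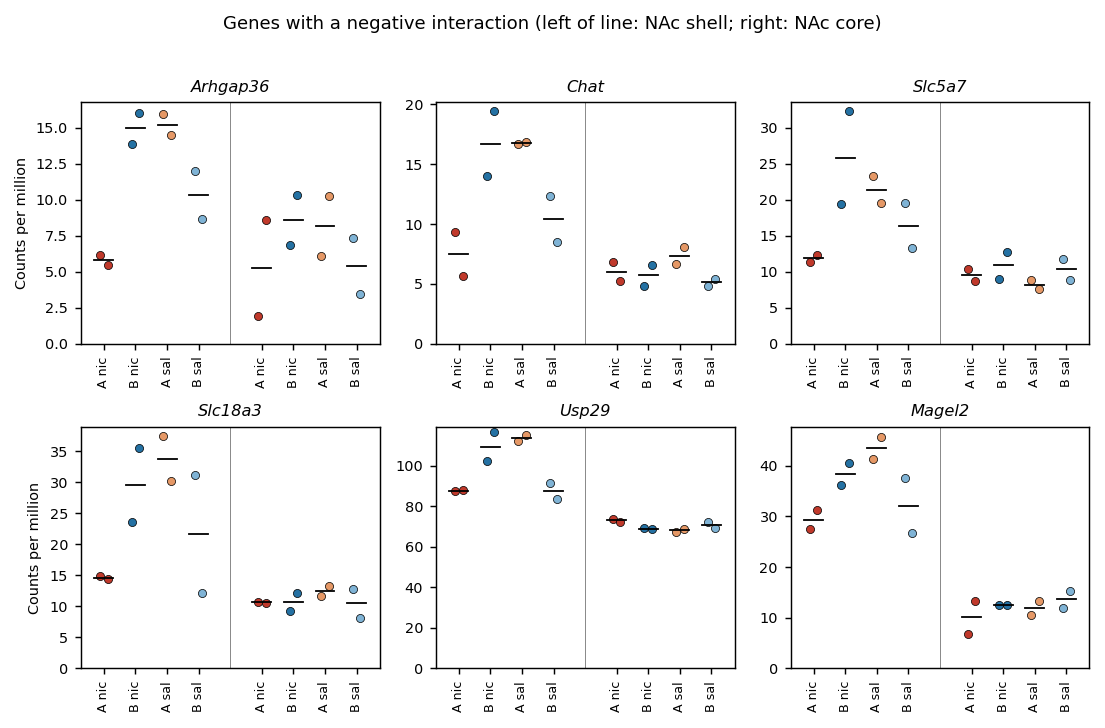
CPM (vertical axis, linear from 0) of Arhgap36, which passed the threshold, and of Chat, Slc5a7, Slc18a3, Usp29 and Magel2, which did not, with 1 point per library for the 4 cells in NAc shell (left of the grey line) and NAc core (right); bars are means of 2 rats. In shell the A-NIC and B-SAL means lie below the other 2 means in all 6 panels, with overlap of single rats in Slc5a7, Slc18a3 and Magel2.

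Ependymal and motile cilia genes gave 5 of 23 negative at an unadjusted p under 0.05, with a median of -0.76 and 0 calls. Hydin (-0.85 ± 0.29), Odf3b (-1.14 ± 0.43), Dnah11 (-0.85 ± 0.33) and Dynlrb2 (-1.18 ± 0.46), all parts of the ciliary axoneme or its motors, had the smallest p. The summed level of the 23 genes was 173 to 209 CPM in A-NIC, 209 to 223 in B-NIC, 186 to 203 in A-SAL and 132 to 184 in B-SAL. Ependymal RNA was thus lowest in a B-SAL rat and highest in a B-NIC rat, and its part in the calls was not tested. None of 26 choroid plexus and 19 leptomeningeal genes had an unadjusted p under 0.05.

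Markers of striatal projection neurons gave 0 of 12 at an unadjusted p under 0.05, with a median of -0.26. Drd1, the D1 dopamine receptor, had -0.45 ± 0.25. The summed level was 3171 to 3765 CPM in A-NIC, 3386 to 4314 in B-NIC, 2616 to 3924 in A-SAL and 3013 to 3309 in B-SAL, so the A-SAL rats spanned most of the range of the shell. Of 11 cortical and glutamatergic markers only Slc17a6 and Cux2 could be named, and neither had an unadjusted p under 0.05. The list therefore could not be read as a whole. The summed level of these 2 was 70.3 to 84.0 CPM in A-NIC and 78.9 to 87.7 in B-NIC. It was 89.8 to 97.1 in A-SAL and 102 to 110 in B-SAL. Cortical projection neurons are known to express genes such as Nrgn and Slc30a3 strongly. Whether cortical RNA in the shell samples differed among rats was not tested. Of 14 markers of septal, preoptic and hypothalamic neurons, 7 were positive and 7 negative, with a median of 0.04. Beside Lhx2, the 1 member at an unadjusted p under 0.05 was Slc32a1, the vesicular GABA transporter (-0.57 ± 0.18, unadjusted p = 0.0110).

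Of the other lists, Nr4a2, a nuclear receptor induced by activity, was the 1 of 5 immediate early genes at an unadjusted p under 0.05, with 1.01 ± 0.33 in shell and 1.52 ± 0.35 in core. Ldha (0.50 ± 0.15), lactate dehydrogenase A, and Egln3 (0.58 ± 0.23), an oxygen sensor, were 2 of 8 genes of hypoxia and glycolysis. Pdgfrb of mural cells (0.43 ± 0.18) and Cd163 of macrophages (-1.16 ± 0.51) were the single genes at that level in their lists. No gene reached it in the lists of astrocytes (7 tested), oligodendrocytes and precursors (15), blood cells (8), interferon response (10), glucocorticoid response (9), dopamine and opioid signalling (9), heat shock and unfolded protein response (5) or nicotinic receptor subunits (4).

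In the NAc core of the same rats, 1 gene was called for the interaction (0.00614%), and it was not among the 57. LOC108348079, an uncharacterised locus, had 0 counts in both A-SAL core libraries and 5.73 to 11.9 CPM in the other 6 (adjusted p = 0.00697). In shell it had counts in rats 1, 3 and 13 and 0 in the other 5. By DESeq2, 16 genes were called in core (0.111%) and 0 of them were among the 57. By edgeR, 959 genes had an unadjusted p under 0.05 (5.89%).

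In the core, the 53 positive genes of the shell had interactions of both signs. Their core interaction was positive in 33 of 53 (51.6% of all genes were positive), with a median of 0.07 and a range from -0.71 to 1.17. At an unadjusted p under 0.05, 5 of the 53 were positive and 2 negative, against 2.6% and 3.28% of all genes. By both counts the share of positive genes was higher than over all genes, and this excess was not tested. In 0 of the 53 did all 4 A-NIC and B-SAL libraries exceed the other 4, an order that 1.33% of all genes showed. With 53 genes, a count of 0 is near that share and does not set them apart from all genes. The core libraries came from the same rats and carried the same batch labels.

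Core values of single genes are given here, and the test between the regions follows. Cck in core stood at 363 and 241 CPM in A-NIC, 212 and 233 in B-NIC, 192 and 156 in A-SAL and 157 and 221 in B-SAL, with an interaction of 0.57 ± 0.28 (unadjusted p = 0.0723). Both A-NIC rats stood above the other 6, and the B-SAL rats lay within the range of the remaining 4. Nrgn in core ranged from 1565 to 2576 CPM, with an interaction of 0.18 ± 0.22 (unadjusted p = 0.420). Slc30a3 went the other way in core, with 134 and 146 CPM in B-NIC, 117 and 100.4 in A-NIC and an interaction of -0.71 ± 0.22 (unadjusted p = 0.00817). Dkk3 kept the sign of the shell, at 0.54 ± 0.18 (unadjusted p = 0.0142).

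The difference of the interactions, shell minus core, was tested over the 16 NAc libraries. Without regard to rat, 0 genes were called by edgeR (smallest adjusted p = 0.0564), 1136 had an unadjusted p under 0.05 (6.97%), and DESeq2 called 69. Of the 53 genes, 48 were positive at an unadjusted p under 0.05, against 4.25% of all genes. With the rat as a replicate block, which compares the 2 regions within each rat, 36 genes were called (0.221%), 31 larger in shell (0.19%) and 5 larger in core (0.0307%) (smallest adjusted p = 0.00812). Of the 36, 21 were among the 57, which is 58.3% of these calls and 36.8% of the 57. The shell values that chose the 57 enter this difference, so it is not independent of that choice. In the blocked fit Slc30a3 differed by 3.62 ± 0.43 (adjusted p = 0.0109), Cck by 2.58 ± 0.40 (adjusted p = 0.0362), Nptx1 by 1.51 ± 0.18 (adjusted p = 0.0109) and Mical2 by 1.56 ± 0.17 (adjusted p = 0.00816). Nrgn (adjusted p = 0.0714) and Dkk3 (adjusted p = 0.218) were not called in that fit.

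Among the calls of the blocked fit outside the 57, Plch2, a phospholipase C, differed by 1.80 ± 0.24 (adjusted p = 0.0145), and Rarb, a retinoic acid receptor of striatal neurons, by -1.15 ± 0.18 (adjusted p = 0.0364). For Plch2 most of the difference came from core (-1.18 ± 0.18) and less from shell (0.59 ± 0.21). Rarb had -0.37 ± 0.20 in shell and 0.78 ± 0.19 in core.

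The level of the 53 genes was also compared between the regions. Averaged over the 4 cells, in a fit without regard to rat, 35 were called higher in core (8.37% of all genes), 2 were called lower (7.5%) and 16 were called neither way. The pairing of core and shell within a rat was not used for the calls and p-values of this comparison. The median core minus shell difference was 0.56, against -0.01 over all genes. Nrgn was higher in core by 1.33 ± 0.07 and Slc30a3 by 1.57 ± 0.15 (adjusted p = 6.72e-08 and 9.08e-06), while Dkk3 (-0.19 ± 0.07) and Lhx2 (-0.14 ± 0.06) were not called. On the scale of the median of the 53 genes, the 8 core libraries lay between 0.21 and 0.88 above the shell mean. In shell the A-NIC and B-SAL rats (0.32 to 0.48) were within that span and the other 4 (-0.54 to 0.01) below it. The 53 genes were called on this same contrast in shell, so that split of the shell rats follows from the choice of genes. Whether the amount of core tissue in the shell samples differed among rats was not tested.

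The count of 57 rested on single rats, with 2 libraries per cell. Without rat 1 only 1 gene was called and without rat 4 only 3, and without rats 16 and 2 there were 5 and 6 calls. Without rats 3, 13 and 15 there were 24, 29 and 36. Without rat 11, the A-SAL rat between the levels, 134 genes were called (0.823%, 125 positive and 9 negative), including 56 of the 57. In each of these fits the remaining library of the reduced cell was assumed to vary like the rest. The 20 called genes named by the rule kept their sign in every one of these fits, and ENSRNOG00000046177 was not included in that count. DESeq2 called 224 genes (1.59% of the 14069 it gave an adjusted p, 173 positive and 51 negative), including all 57, and 1 fit over all 24 libraries, which shares its estimate of the spread with the VTA, called 0 (smallest adjusted p = 0.0599, 714 at an unadjusted p under 0.05).

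**Figure D5:**
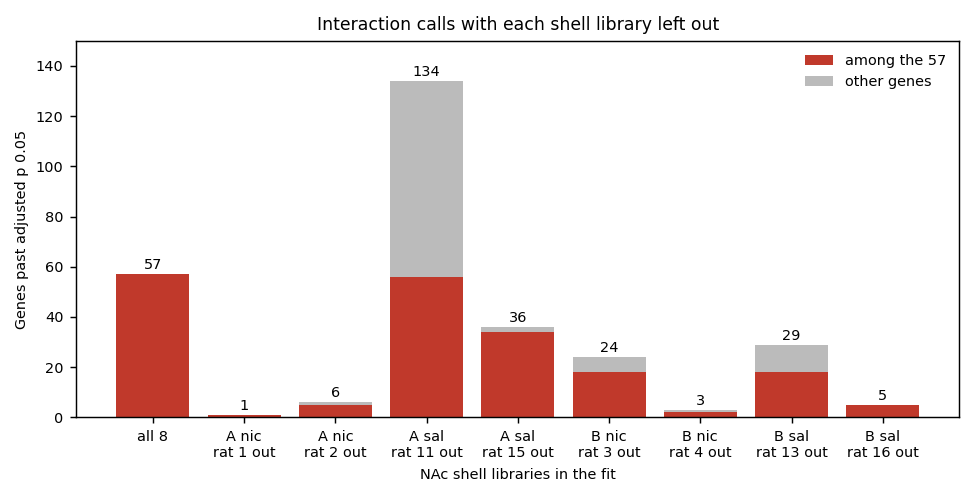
Number of genes past an adjusted p of 0.05 for the shell interaction (vertical axis) with all 8 libraries and with each shell library left out in turn; red counts genes among the 57 and grey other genes. The bars run from 1 without rat 1 to 134 without rat 11.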

How the data were processed

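RNA-seq of 8 NAc shell and 8 NAc core libraries was analysed, with the 8 VTA libraries used for the expression filter and 1 alternative fit. The authors trimmed paired reads with fastp 0.20.0, quantified them with Salmon 0.12.0 against rat genome Rnor 6 and collapsed transcripts to genes with tximport, and deposited the estimated counts, unnormalized and as whole numbers, for 17323 Ensembl IDs. Salmon divides ambiguous reads by estimation, so near-identical genes can exchange counts. Groups, batches and rat numbers came from the labels, and the meaning of subgroups A and B and of the regions from the study's methods; 0 columns were left without a sample. The injections on the first 4 days are given by the labels, and the study's methods do not describe them for the self-administration rats. The labels' nac and nash were read as core and shell.

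A gene was tested if 3 or more of the 24 libraries exceeded 10 counts after scaling by median-ratio size factors (16289 genes). edgeR 4.0.16 (R 4.3.3) fitted quasi-likelihood models with TMM normalization and 1 coefficient per cell, to the 8 libraries of a region, or to 16 for shell minus core and core minus shell. The contrasts were two-sided and p-values were Benjamini-Hochberg adjusted over all tested genes. Each standard error is the log2 fold change divided by the square root of F. CPM used TMM library sizes. The study tested with DESeq2, and DESeq2 1.42.0 was run as an alternative here. The scripts were tested on simulated data with known changes. Libraries within a cell differed by 6.34 to 21.0 times the chi-square degrees of freedom, so none was a copy.

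The rat pairs core and shell because both came from 1 animal. The correlations of their deviations from the cell means were -0.05 to 0.09 over the 4 cells, with 1 value per cell because the deviations of 2 rats mirror each other. None was over 0.1, and the pairing rests on the animal.

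The reference tables held no pairing of Ensembl IDs with symbols, so names were taken from the ID and symbol columns of the study's supplementary tables, for names only, which covered 7462 IDs. Those tables include lists of differentially expressed genes, so the named genes may not represent all tested genes. Genes were named by rule: called named genes (up to 20 positive and 10 negative by p), up to 5 in core or shell minus core, up to 4 per list and up to 4 for the saline contrast, plus up to 2 IDs in each direction. The contrast, the lists and the rule were chosen with earlier results of these data known. A list of 13 mitochondrially encoded genes held 0 that could be named.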

Additional observations from a re-analysis of the deposited data

Results flagged for a closer look

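The effect of the injection differed between the subgroups, by the test of the interaction, for 57 genes in NAc shell by edgeR with all 8 libraries. That count was 1 without rat 1, 6 without rat 2, 3 without rat 4 and 5 without rat 16, lay between 24 and 36 without rat 3, 13 or 15, was 134 without rat 11, 224 by DESeq2 and 0 in the fit over all 24 libraries (714 at an unadjusted p under 0.05). The interaction also differed between shell and core for 36 genes in the fit with the rat as a replicate block, whereas the fit without the block called 0 by edgeR (smallest adjusted p = 0.0564, 1136 genes at an unadjusted p under 0.05) and 69 by DESeq2. Among the secreted neuronal proteins the flagged interactions were Adcyap1 3.23, Cck 2.98, Nptx1 1.60 and Dkk3 1.12 on the log2 scale. Among synaptic and membrane genes they were Slc30a3 2.77, Nrgn 1.35, Fxyd7 1.21, Gng13 1.01 and Efhd2 0.90. Mical2 had 1.44, Galnt9 1.08, Golga7b 0.99, Inka2 0.88, Lhx2 0.91, LOC103693323 1.70 and ENSRNOG00000005185 2.26. Arhgap36 was the only named gene without a 0 that was negative, at -1.92. For the genes with 0 counts in a cell the adjusted p is given instead, and it was 0.00801 for LOC100910143, 0.00801 for ENSRNOG00000043107, 0.0366 for Cfb and, in core, 0.00697 for LOC108348079. The A-NIC and B-NIC rats of all these comparisons differ in batch as well as in cross.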

How the results depend on the processing

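The shell count of 57 stayed between 55 and 60 with median-ratio size factors, filterByExpr, no filter or a mean normalized count of at least 100. DESeq2 gave higher counts throughout: 224 for the shell interaction, 210 for A against B under NIC (39 by edgeR), 18 under SAL (1), 43 and 118 for NIC against SAL in A and in B (1 and 6), 16 for the core interaction (1) and 69 for shell minus core (0). The fit over all 24 libraries gave 0 for the 6 comparisons within shell or core, with 334 to 818 genes at an unadjusted p under 0.05. For NIC against SAL in A, filterByExpr and a mean of at least 100 gave 0 calls by edgeR, with 801 and 628 at an unadjusted p under 0.05, and in B the mean of at least 100 gave 3. For shell minus core, no filter gave 4, and the replicate block, which pairs core and shell of a rat, gave 36. The blocked fit was not repeated with libraries left out, so the range below for shell minus core is that of the fit without the block. No paired fit was possible within 1 region because each rat gave 1 library there. Leaving out 1 library at a time gave 1 to 134 calls for the shell interaction, 0 to 80 for A against B under NIC, 1 to 31 under SAL, 0 to 51 and 1 to 58 for NIC against SAL in A and in B, 1 to 12 for the core interaction and 0 to 30 for shell minus core. The highest counts for the shell interaction, for A against B under SAL, for NIC against SAL in A and for shell minus core came without the shell library of rat 11. The cause of these differences was not tested. Over the alternatives for the shell interaction, the 20 called genes named by the rule, which leaves out ENSRNOG00000046177, kept their sign in all 279 estimates and stayed past the threshold in 156. Of the 21 lists, 2 held a called gene, and these single calls were lost in 8 of 14 alternatives for Lhx2 and in 6 of 14 for Cfb. DESeq2 called 2 of the 6 interneuron and 3 of the 22 imprinted genes, against 1.59% of all genes. With 2 libraries per cell, small differences may have been missed, and the smallest detectable size was not measured.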
